A study of Mus musculus with 2 samples.

Results

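Natural killer (NK) cells were taken from the scRNA-seq of CD45+ cells of the injured thalamus as the cells with 2 or more UMIs (unique molecular identifiers, 1 per captured mRNA molecule) summed over the NK receptor genes Ncr1, Klrb1c and Klre1, no UMI of the T cell genes Cd3d, Cd3e and Cd3g, and no UMI of Csf1r, which marks microglia and macrophages. Members were thus chosen by the measured UMIs of these 7 genes, whose levels are a description of the rule and not a finding. The rule gave 332 NK cells of 26145 kept cells, where a kept cell had 200 to 7500 detected genes and at most 5% of its UMIs in mitochondrial genes. The control Ab library held 187 NK cells of 11690 kept cells, and the anti-CD9 Ab library held 145 of 14455.

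Both groups were C57B6/J mice with no transgene named in the labels, given cortical ablation injury (CAI) at 12 weeks of age by the study's records and collected on day 21. Control mice received normal rat IgG (control Ab) and the others the rat antibody KMC8 against the tetraspanin CD9 (anti-CD9 Ab), at 1.0 μg/μl through a cannula into the thalamus of the injured hemisphere from day 7 to day 19. Live CD45+ cells were sorted by flow cytometry, and 1 library was made per antibody. The methods describe a pool of 4 mice per thalamus library and do not repeat this for the antibody groups. No test could be made of a single library per antibody, so antibody, mice, sort and library cannot be told apart, and the 95% intervals below cover counting error only.

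NK cells are innate lymphocytes of the blood and tissues that kill target cells by releasing perforin and granzymes from granules and that secrete interferon gamma and chemokines. They carry germline-encoded activating receptors, several of which signal through the adapters FcεRIγ (Fcer1g) and DAP12 (Tyrobp), and inhibitory receptors of the Ly49 (Klra) and NKG2 (Klrc, Klrd1) families that bind MHC class I. Cytokines such as IL-2, IL-12, IL-15 and IL-18 activate them. They are scarce in the healthy brain parenchyma and enter it from the blood after injury.

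The label was checked against genes that the rule did not use. Of 6 further NK genes (Gzma, Nkg7, Klrd1, Fcer1g, Tyrobp and Klrk1), at least 3 had a UMI in 97.9% of control NK cells and in 95.2% of anti-CD9 NK cells, against 37.9% and 50.2% of CD8 T cells (cells with Cd3 and Cd8 UMIs and no NK receptor UMI) and 8.09% and 8.30% of all other kept cells. Fcer1g and Tyrobp are also used by myeloid cells. At least 2 of Gzma, Klrd1 and Klrk1 had a UMI in 88.8% and 88.3% of NK cells, 26.5% and 35.0% of CD8 T cells and 3.81% and 3.22% of all other kept cells. Gzma, which encodes granzyme A, was at 3376 CPM (the gene's share of all UMIs summed over a cell group, scaled to a common total) under control Ab and 5406 CPM under anti-CD9 Ab, against 75.4 and 89.9 CPM in all other kept cells. Klrd1, which encodes CD94, was at 1255 and 1275 CPM against 43.9 and 53.7 CPM. Nkg7, a cytotoxic granule membrane protein, was at 1890 and 2049 CPM against 171 and 140 CPM. These markers were far above the rest of the kept cells in both libraries.

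Several genes of other lymphocytes were checked. No NK cell of either library had a Cd8a UMI, which allows up to 1.60% of control and 2.07% of anti-CD9 NK cells with a UMI (3 cells of each total) and sets no limit on cells that express the gene. Of the 8 listed markers of type 2 innate lymphoid cells, 5 had no UMI in NK cells of either library, among them the receptor gene Il1rl1. Gata3, the most abundant of the 8 and also a T cell gene, was at 105 and 69.1 CPM in NK cells, against 56.1 and 54.4 CPM in CD8 T cells and 28.2 and 15.8 CPM in all other kept cells. The rule does not separate NK cells from type 1 innate lymphoid cells, which share Ncr1 and Klrb1c, and Itga1, a gene often used to tell them apart, had a UMI in 44.4% and 24.8% of members. Trac, the T cell receptor alpha constant gene, had a UMI in 2.67% of control NK cells (exact binomial 95% interval 0.874 to 6.13) and 2.76% of anti-CD9 NK cells (0.757 to 6.91), against 75.6% and 82.8% of CD8 T cells. Trbc1, the T cell receptor beta constant gene that NK cells are known to transcribe without rearrangement, had a UMI in 27.8% and 41.4%, and Trbc2 in 27.3% and 28.3%. Trdc, the T cell receptor delta constant gene, had a UMI in 8.02% and 10.3% of NK cells, against 5.97% and 1.97% of CD8 T cells and 24.0% and 10.6% of all other kept cells. Jchain, a plasma cell gene, had a UMI in 9.09% and 8.28% of NK cells, beside 11.4% and 7.39% of CD8 T cells. UMIs of myeloid genes were present. C1qa, a microglial complement gene, had a UMI in 46.0% and 27.6% of NK cells. It had one in 45.7% and 31.5% of CD8 T cells, which should lack it. Other myeloid genes went the other way. Lyz2 had a UMI in 18.2% and 46.9% of NK cells and in 15.3% and 51.2% of CD8 T cells. S100a8 had one in 1.07% and 11.0% of NK cells and in 1.56% and 9.36% of CD8 T cells. The source of this RNA and its part in the NK cell results were not tested.

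**Figure D1:**
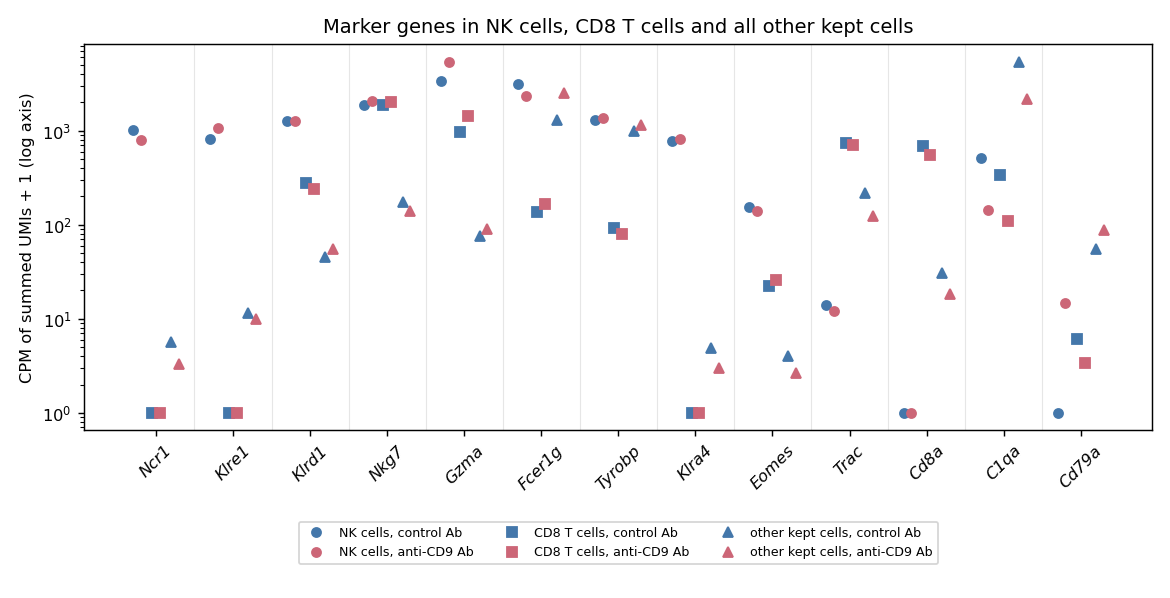
CPM of summed UMIs plus 1 (log axis) of 13 marker genes in NK cells (circles), CD8 T cells (squares) and all other kept cells (triangles) of the control Ab (blue) and anti-CD9 Ab (red) libraries, 1 point per cell group and library. Ncr1 and Klre1 were part of the rule for NK cells and are at 0 in CD8 T cells by construction, and Cd8a was part of the rule for CD8 T cells. Klrd1, Gzma, Klra4 and Eomes, which the rule did not use, were higher in NK cells than in both other groups, and Trac was far lower than in CD8 T cells.

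A few members held a large part of the summed UMIs of single genes, among them genes of other cell types. In the control library, 1 member with 9211 UMIs held 625 of the 1105 Spp1 UMIs of all control NK cells together with 343 Apoe and 302 Lyz2 UMIs, all myeloid genes. A second, with 6105 UMIs, held 55 of the 66 UMIs of Ptgds, an oligodendrocyte gene, and had no UMI of Gzma, Gzmb or Prf1. Another had 22 of the 23 S100a8 UMIs and no UMI of Gzma or Nkg7. In the anti-CD9 library, 2 members with 15860 and 6397 UMIs held 721 and 449 of the 1645 Gzmc UMIs. None of these 5 was marked as a doublet by the score used, and results that moved by over 1.5 times without the first 2 and the last 2 are given with and without them.

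NK cells made up 1.60% of kept cells under control Ab (exact binomial 95% interval 1.38 to 1.84) and 1.00% with anti-CD9 Ab (0.847 to 1.18). The difference was -0.597 percentage points (Newcombe 95% interval -0.883 to -0.321), and the ratio of the shares was 0.627 (0.506 to 0.778). The order turned with the denominator. Per 100 T cells (2 or more Cd3 UMIs) there were 2.94 NK cells under control Ab and 4.36 under anti-CD9 Ab, a ratio of 1.48 (1.19 to 1.85), since T cells themselves were 54.3% of kept cells in the control and 23.0% in the anti-CD9 library. Per 100 kept cells without a Csf1r UMI the values were 2.29 and 1.40.

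At the edge of the rule, 19 control and 17 anti-CD9 members had exactly 2 receptor UMIs, with Gzma at 2532 and 3598 CPM. Just outside, 22 control and 60 anti-CD9 cells had 1 receptor UMI with no Cd3 or Csf1r UMI, and their Gzma was at 210 and 502 CPM. A further 121 control and 87 anti-CD9 cells reached 2 receptor UMIs but carried a Cd3 UMI, and their Trac was at 429 and 349 CPM. Among members, Ncr1 had a UMI in 78.6% and 77.2%, Klrb1c in 86.1% and 70.3%, and Klre1 in 72.2% and 87.6%. Members had a median of 1959 UMIs and 1148 genes with control Ab and 2212 UMIs and 1234 genes under anti-CD9 Ab.

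CD8 T cells, the other cytotoxic lymphocytes, were used to show where NK cells differ. They were cells with 2 or more Cd3 UMIs, 2 or more Cd8a and Cd8b1 UMIs and no UMI of the NK receptor genes or Csf1r (385 cells under control Ab and 203 under anti-CD9 Ab). Of the 2966 genes with 50 or more UMIs in NK cells, 133 (4.48%) were at least 2-fold higher in NK cells than in CD8 T cells in both libraries, and 24 (0.809%) were at least 2-fold lower in both. A pseudocount of 20 CPM was added in these ratios. Of the 22 NK receptor genes with 50 or more UMIs, 19 were among those higher, 3 of them the genes of the rule. The CD8 T cells were chosen without UMIs of these 3 genes, which can also take out T cells with other NK receptors. That number therefore follows in part from the choice of cells. The cells with a Cd3 UMI and 2 or more receptor UMIs, in neither group, held Klra4 at 248 and 53.6 CPM and Klrd1 at 843 and 821 CPM. Because a gene had to reach 50 UMIs in NK cells, genes low in NK cells and high in CD8 T cells were mostly not among the 2966, so the numbers higher and lower are not compared.

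Among these, Klra4, an activating receptor of the Ly49 family, was at 769 and 807 CPM in NK cells and had no UMI in CD8 T cells of either library. Klra8 (Ly49H), which pairs with DAP12, was at 432 CPM under control Ab and 619 CPM under anti-CD9 Ab, against 13.3 and 1.18 CPM. Reads of the near-identical Klra genes can be split between them, so single members of this family are uncertain. 

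Fcer1g was at 3106 and 2361 CPM in NK cells against 137 and 167 CPM in CD8 T cells, but all other kept cells, which include myeloid cells that use this adapter, also carried it at 1284 and 2528 CPM. Tyrobp was at 1293 and 1366 CPM against 91.8 and 79.2 CPM. Both adapters were higher in NK cells than in CD8 T cells. All other kept cells held Tyrobp at 993 and 1154 CPM, below NK cells, while Fcer1g was higher in NK cells in the control library only. Txk, a Tec-family kinase, was at 504 and 539 CPM against 75.5 and 99.3 CPM, and Clnk, an adapter of immunoreceptor signaling, at 905 and 735 CPM against 64.3 and 17.7 CPM. Other genes set apart by the same measure were Styk1, Klri2, Klrb1b, Cd244a, Itga2, Dscam, Gas7, Eya1 and Aoah.

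Nkg7 did not separate the cytotoxic cell types: it was at 1895 and 2003 CPM in CD8 T cells, next to 1890 and 2049 CPM in NK cells. Prf1, which encodes perforin, did, at 296 and 636 CPM in NK cells against 61.2 and 53.2 CPM. Xcl1, a chemokine that attracts cross-presenting dendritic cells, was at 815 and 821 CPM in NK cells, whereas CD8 T cells had 299 CPM under control Ab and 26.0 CPM under anti-CD9 Ab. Eomes, a T-box factor of NK cells, was at 154 and 138 CPM in NK cells against 21.4 and 24.8 CPM in CD8 T cells.

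Between the antibodies, 80 of the 2966 genes (2.7%) were at least 2-fold higher with anti-CD9 Ab in NK cells and 67 (2.26%) at least 2-fold lower, and the median log2 ratio over all was 0.02. This is a rule of size and not a test. Without the 4 members named above (the 2 control cells rich in Spp1 and Ptgds and the 2 anti-CD9 cells rich in Gzmc), 68 and 48 of 2839 genes passed it. Of 22 NK receptor genes, 3 of them the genes of the rule, 12 were higher and 10 lower with anti-CD9 Ab, with a median log2 ratio of 0.05, none past 2-fold higher and 2 (Cd160 and Klra3) past 2-fold lower. Without the genes of the rule, 11 of 19 were higher and 8 lower, with a median of 0.07, and the summed level of the receptor genes was 7221 and 7742 CPM. Over all 2966 genes, 1535 were higher and 1431 lower.

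**Figure D2:**
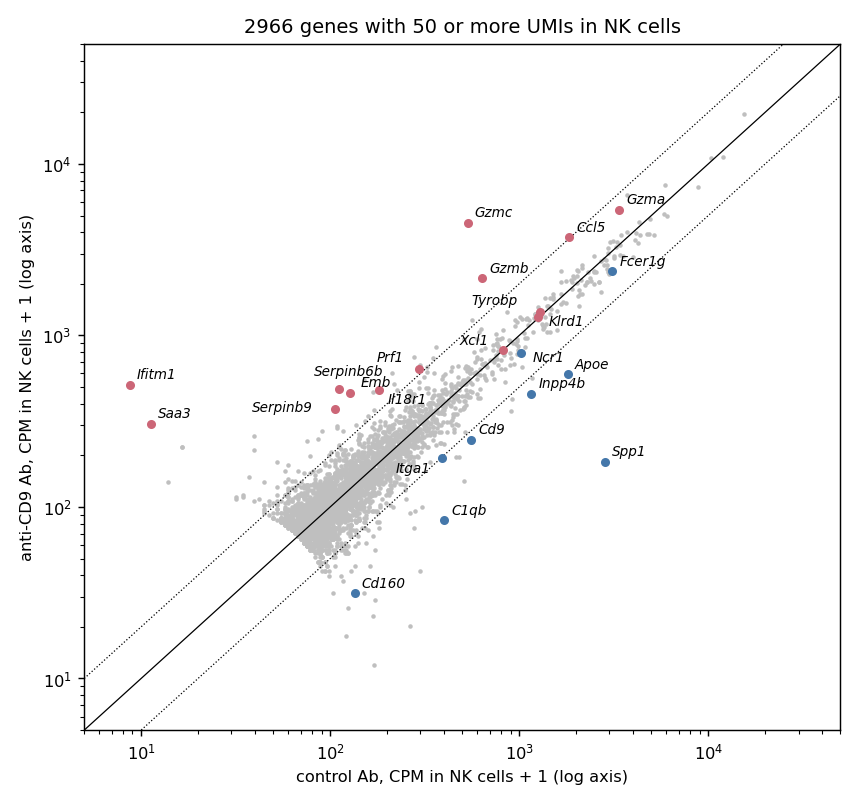
CPM plus 1 in NK cells with control Ab (x axis) and anti-CD9 Ab (y axis), both on log axes, for the 2966 genes with 50 or more UMIs (grey), with named genes in red (higher with anti-CD9 Ab) or blue (lower). The solid line marks equal values and the dotted lines 2-fold. Klrd1, Tyrobp and Xcl1 lay on the line, while Gzmb, Gzmc, Serpinb6b and Emb lay above and Cd160, Itga1, Cd9 and Spp1 below the 2-fold lines.

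The receptor furthest from equality was Cd160, a receptor for HVEM and MHC class I that NK cells and some T cells carry. It was at 134 CPM under control Ab and 30.4 CPM under anti-CD9 Ab, in 21.9% and 7.59% of NK cells, a log2 ratio of -2.14 (-3.07 to -1.20). In CD8 T cells its log2 ratio was 0.52. Klrk1, which encodes the activating receptor NKG2D, was at 1123 and 1225 CPM. Slamf7, Klrb1b and Klri2 had the most positive values, with log2 ratios of 0.96, 0.85 and 0.78. Of 16 adapters and kinases, 9 were higher and 7 lower, with a median of 0.08 and none past 2-fold. Within this list Cd247, the CD3 zeta chain that NK receptors also use, was at 118 and 213 CPM, and Fcer1g, with a log2 ratio of -0.40 (-0.52 to -0.27), was lower.

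Cytotoxic granule genes differed in both directions. Of 16 genes, 11 were higher and 5 lower, 5 past 2-fold higher (Prf1, Gzmb, Serpinb9, Serpinb6b and Gzmc) and 2 past 2-fold lower (Lamp1 and Ctsd), with a median log2 ratio of 0.56. Without the 4 members 4 genes were past 2-fold higher and 1 lower, and the median was still 0.56. With cells thinned to 1000 UMIs the median of the 11 genes left was 0.70 for the same members and 0.032 when members were chosen again after thinning. Serpinb9 and Serpinb6b belong to the family of intracellular serpins, of which Serpinb9 inhibits granzyme B and protects the killer cell itself. Serpinb6b was at 111 CPM under control Ab and 487 CPM under anti-CD9 Ab, with a UMI in 16.0% (11.1 to 22.1) and 48.3% (39.9 to 56.7) of NK cells and a log2 ratio of 2.14 (1.66 to 2.62). With every cell thinned to 1000 UMIs the shares were 8.52% and 30.4%. Serpinb9 was at 105 and 373 CPM, in 34 and 69 cells, a log2 ratio of 1.82 (1.32 to 2.33). Both genes were spread over many cells: the member with most UMIs held 8 of 176 Serpinb6b and 6 of 135 Serpinb9 UMIs with anti-CD9 Ab. In CD8 T cells the log2 ratios were 3.21 and 1.09, the same direction as in NK cells.

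Gzmb, which encodes granzyme B, was at 632 CPM under control Ab and 2157 CPM under anti-CD9 Ab, with a log2 ratio of 1.77 (1.56 to 1.98), but the number of NK cells with a UMI was 65 in both libraries (34.8% and 44.8%), and the 3 highest anti-CD9 cells, with 147, 144 and 129 UMIs, held 53.8% of its UMIs. Without the 4 members the log2 ratio was 1.16. With cells thinned to 1000 UMIs it was 0.80 for the same members, and it turned to -0.38 when members were also chosen again on the thinned counts, which left 148 control and 98 anti-CD9 NK cells. In CD8 T cells it was 1.97. Gzmc, a granzyme of strongly activated killer cells, was at 532 and 4548 CPM, a log2 ratio of 3.10 (2.89 to 3.30), while the share of NK cells with a UMI was 20.3% (14.8 to 26.8) and 15.2% (9.76 to 22.1). The 2 highest anti-CD9 cells held 71.1% of its UMIs, and the log2 ratio was 1.34 without the 4 members, 1.50 after thinning with the same members, and 0.01 when members were chosen again after thinning.

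The summed levels of both granzymes thus rested largely on a few cells of the anti-CD9 library. Prf1 was at 296 and 636 CPM, a log2 ratio of 1.11 (0.78 to 1.43), which was 0.79 without the 4 members. Gzma was at 3376 and 5406 CPM, a log2 ratio of 0.68 (0.58 to 0.78), with a UMI in 58.8% (51.4 to 66.0) and 70.3% (62.2 to 77.6) of NK cells. In the anti-CD9 library 1 cell held 289 of the 1955 Gzma UMIs. The Gzma log2 ratio was 0.27 at 2% mitochondrial UMIs, 0.50 with cells weighted equally and 0.54 without its highest cell. Thinned to 1000 UMIs, it was 0.70 for the same members and 0.88 when members were chosen again. Lamp1, a lysosome membrane protein that reaches the cell surface when granules are released, was lower, at 280 and 94.0 CPM with a log2 ratio of -1.58 (-2.13 to -1.02), as was Ctsd, a lysosomal protease abundant in myeloid cells, at 915 and 426 CPM.

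**Figure D3:**
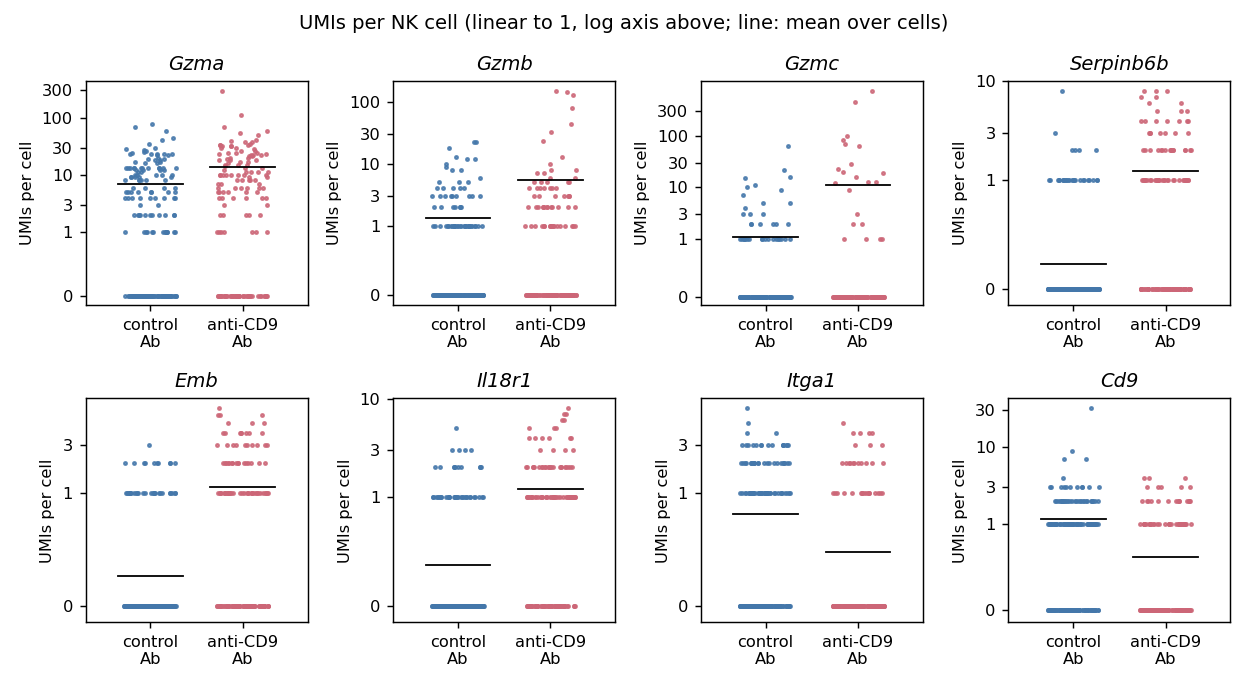
UMIs of 8 genes in each NK cell (y axis, linear from 0 to 1 and logarithmic above; horizontal line, mean over cells) of the control Ab (blue, 187 cells) and anti-CD9 Ab (red, 145 cells) libraries. The Gzmc mean with anti-CD9 Ab was set by cells with up to 721 UMIs, while Serpinb6b, Emb and Il18r1 were spread over many cells with 1 to 8 UMIs.

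The promoters of the 5 granule genes past 2-fold higher are printed because these genes had the highest ratios of their list, from 250 bases before to 50 bases after the annotated start (RefSeq, GRCm38.p6, all 5 matched by symbol, 5′ to 3′ on the gene's strand). Capitals mark the T-box core GTGTGA and the RUNX core TGTGGT, each searched on both strands, which belong to the factor families of Eomes, Tbx21 and Runx3.
Prf1, chr10:61297586-61297885, plus strand: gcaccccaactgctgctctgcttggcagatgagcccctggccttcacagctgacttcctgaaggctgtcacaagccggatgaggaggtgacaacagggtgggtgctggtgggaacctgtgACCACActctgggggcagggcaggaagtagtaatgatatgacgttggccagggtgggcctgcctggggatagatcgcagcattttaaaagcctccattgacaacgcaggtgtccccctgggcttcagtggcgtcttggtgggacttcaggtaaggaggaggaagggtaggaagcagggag
Gzmb, chr14:56262285-56262584, minus strand: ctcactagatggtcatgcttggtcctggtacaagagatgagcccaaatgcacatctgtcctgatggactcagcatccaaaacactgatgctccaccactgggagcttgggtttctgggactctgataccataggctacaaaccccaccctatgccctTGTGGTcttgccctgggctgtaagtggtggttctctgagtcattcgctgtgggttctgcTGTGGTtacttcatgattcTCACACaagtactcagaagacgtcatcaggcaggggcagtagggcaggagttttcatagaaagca
Gzmc, chr14:56234608-56234907, minus strand: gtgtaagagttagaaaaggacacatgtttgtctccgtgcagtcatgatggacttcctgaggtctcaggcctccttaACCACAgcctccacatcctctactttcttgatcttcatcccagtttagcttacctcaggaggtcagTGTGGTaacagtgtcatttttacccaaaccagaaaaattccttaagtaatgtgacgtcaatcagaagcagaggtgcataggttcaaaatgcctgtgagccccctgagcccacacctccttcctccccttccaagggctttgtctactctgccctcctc
Serpinb9, chr13:33004291-33004590, plus strand: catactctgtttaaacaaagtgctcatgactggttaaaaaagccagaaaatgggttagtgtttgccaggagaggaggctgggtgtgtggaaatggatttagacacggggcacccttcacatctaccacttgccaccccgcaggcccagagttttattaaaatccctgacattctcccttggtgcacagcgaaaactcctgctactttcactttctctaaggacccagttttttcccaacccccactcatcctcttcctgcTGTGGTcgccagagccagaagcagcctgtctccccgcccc
Serpinb6b, chr13:32965011-32965310, plus strand: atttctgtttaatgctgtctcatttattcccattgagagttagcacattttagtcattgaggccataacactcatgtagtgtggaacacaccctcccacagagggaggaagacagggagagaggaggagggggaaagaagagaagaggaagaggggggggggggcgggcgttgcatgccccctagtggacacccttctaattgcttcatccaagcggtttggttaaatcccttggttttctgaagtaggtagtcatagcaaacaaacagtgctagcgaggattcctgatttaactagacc
The RUNX core was present in 4 of the 5 (2 matches each in Gzmb and Gzmc, 1 each in Prf1 and Serpinb9), and the T-box core in Gzmb alone, 15 bases before the start. Of all 32851 promoters of the table, 16.8% held the RUNX core and 14.5% the T-box core. A match describes letters in this window and says nothing of binding. The levels of these factors in NK cells were close between the libraries: Eomes was at 154 and 138 CPM, Tbx21 (T-bet) at 195 and 194 CPM, and Runx3 at 329 and 398 CPM, none with a log2 ratio whose interval left 0.

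Cytokine receptors were higher as a list. Of 10 genes, 7 were higher and 3 lower with anti-CD9 Ab, 4 past 2-fold higher, with a median log2 ratio of 0.83 against 0.02 over all genes and -0.12 for the same genes in CD8 T cells. Il18r1, a chain of the IL-18 receptor, was at 180 and 481 CPM with a UMI in 25.7% (19.6 to 32.6) and 57.9% (49.5 to 66.1) of NK cells, a log2 ratio of 1.42 (1.02 to 1.82). Thinned to 1000 UMIs the shares were 19.3% and 40.7%. In CD8 T cells its level was 215 and 194 CPM.

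The second chain of this receptor, Il18rap, was at 152 and 318 CPM (log2 ratio 1.07, 0.62 to 1.52). Il12rb2, which with Il12rb1 forms the IL-12 receptor, was at 108 and 288 CPM (1.41, 0.90 to 1.93), and Il7r at 56.6 and 160 CPM (1.50, 0.80 to 2.21). The receptors for IL-18 and IL-12 bind cytokines that activate NK cells. Without the 4 members the log2 ratios of Il18r1, Il18rap, Il12rb2 and Il7r were 1.49, 1.10, 1.45 and 1.60. Il2rb, the shared chain of the IL-2 and IL-15 receptors, was at 612 and 1045 CPM (0.77, 0.54 to 1.01), and Ifngr1 at 509 and 946 CPM (0.89, 0.64 to 1.15). Tgfbr2, a receptor for TGF-β, was lower, at 216 and 138 CPM (-0.64, -1.15 to -0.14).

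Of 6 cytokine and chemokine genes, 4 were higher and 2 lower, 2 past 2-fold higher. Ccl5, a chemokine stored by NK cells and memory T cells, was at 1828 CPM under control Ab and 3735 CPM under anti-CD9 Ab, with a log2 ratio of 1.03 (0.90 to 1.16), while CD8 T cells held 3989 and 4207 CPM. The NK cell log2 ratio of Ccl5 was inside 2-fold at 2% mitochondrial UMIs (0.81), with 3 or more receptor UMIs (0.95) and with 1 or more (0.83). Ifng, which encodes interferon gamma, was at 43.7 and 102 CPM, from 17 and 37 UMIs, a log2 ratio of 1.23 (0.40 to 2.06). Xcl1 was level, with a log2 ratio of 0.01 (-0.22 to 0.24). Tnf was too low for the list, with 15 and 3 UMIs.

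**Figure D4:**
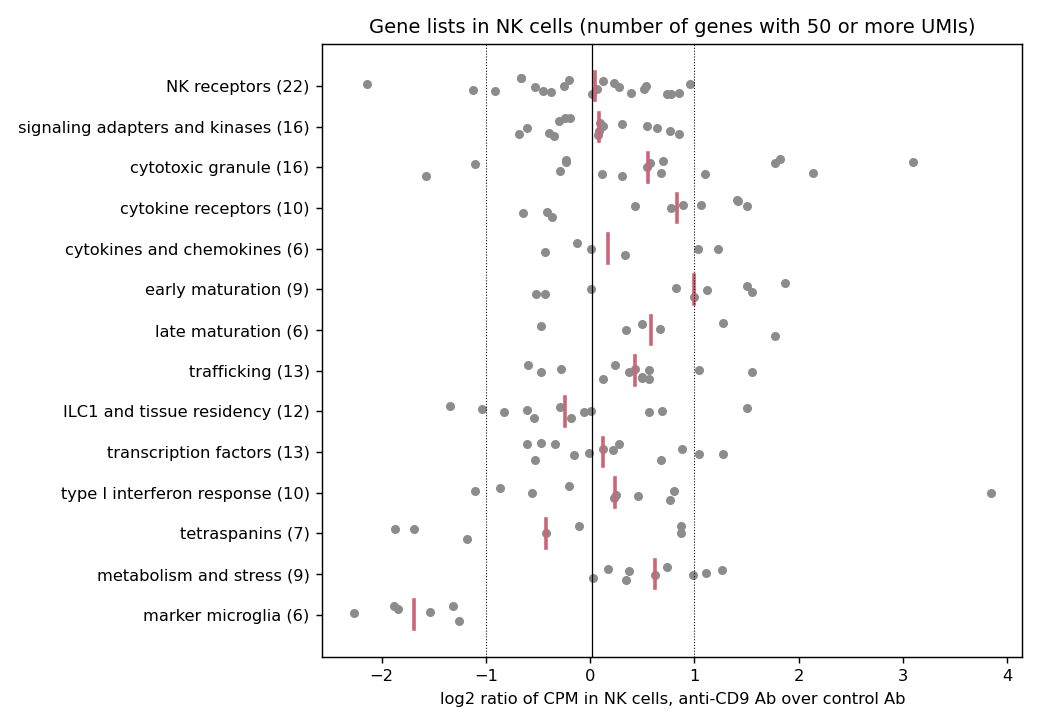
Log2 ratio of CPM in NK cells, anti-CD9 Ab over control Ab (x axis), for the genes of 14 lists with 50 or more UMIs (grey points, number in brackets; red line, list median). The black line is the median of all 2966 genes and the dotted lines mark 2-fold. Cytokine receptors and early maturation genes lay to the right with medians of 0.83 and 1.00, NK receptors around 0.05, and the 6 microglial markers to the left at -1.69.

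Genes of early and of late NK maturation were both mostly higher. Of 6 late maturation genes, 5 were higher and 1 lower, 2 past 2-fold higher (Gzmb and Irf8), with a median log2 ratio of 0.58. Of 9 early maturation genes, 7 were higher and 2 lower, 5 past 2-fold higher, with a median log2 ratio of 1.00, against 0.08 in CD8 T cells. Without the 4 members the medians were 0.70 for late and 0.85 for early genes. The early median was 0.50 at 2% mitochondrial UMIs, 0.64 after thinning with the same members (6 genes left) and 0.0097 when members were chosen again after thinning (5 genes left). Emb, which encodes the adhesion protein embigin, was at 126 and 462 CPM with a UMI in 19.8% (14.3 to 26.2) and 51.0% (42.6 to 59.4) of NK cells, a log2 ratio of 1.87 (1.41 to 2.33). After thinning, 10.8% and 34.8% of NK cells had an Emb UMI. Emb was also higher in CD8 T cells, with a log2 ratio of 0.98 (0.71 to 1.26), and in all other kept cells, with 0.89.

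Ctla2a, a cysteine protease inhibitor of activated lymphocytes, was at 560 and 1222 CPM (log2 ratio 1.12, 0.89 to 1.36). Irf8, a transcription factor that NK cells need for their response to virus, was at 216 and 523 CPM (1.27, 0.90 to 1.65), whereas its log2 ratio in CD8 T cells was -0.88. The NK cell ratio of Irf8 was 0.75 at 2% mitochondrial UMIs. With 1 or more receptor UMIs that of Ctla2a was 0.87. Klf2, which drives the genes for exit from tissue, was at 100 and 207 CPM (1.05, 0.49 to 1.61), but its log2 ratio was -0.22 when only cells with at most 2% mitochondrial UMIs were used. Irf8 and Klf2 were the transcription factors past 2-fold, of 13 with 7 higher and 6 lower and a median of 0.12. Of 13 trafficking genes, 10 were higher and 3 lower, with a median of 0.43 that was 0.14 at 2% mitochondrial UMIs and -0.04 in cells with no UMI of other lineages. Ccr2, a chemokine receptor for entry into inflamed tissue, was at 303 and 393 CPM.

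Of 12 genes that mark type 1 innate lymphoid cells or resident lymphocytes, 4 were higher and 8 lower with anti-CD9 Ab, 2 past 2-fold lower and 1 (Il7r) past 2-fold higher, with a median log2 ratio of -0.24. That median was -1.24 at 2% mitochondrial UMIs and -1.03 at 100 UMIs per gene. It was -1.07 or -0.85 thinned with members chosen again or the same (3 genes left). With no UMI of other lineages, where only 289 genes were tested, it was -1.40, equal to the log2 ratio of Inpp4b. Itga1, the alpha chain of the collagen-binding integrin CD49a, was at 391 and 191 CPM with a UMI in 44.4% (37.1 to 51.8) and 24.8% (18.0 to 32.7) of NK cells. Its log2 ratio was -1.03 (-1.44 to -0.62). That ratio was -0.98 with 3 or more receptor UMIs, -0.93 without marked doublets and -0.85 thinned with the same members. The shares were 25.0% and 15.6% after thinning. Inpp4b, a phosphoinositide phosphatase, was at 1157 and 456 CPM (-1.34, -1.60 to -1.09).

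Both were lower in CD8 T cells too, with log2 ratios of -0.90 and -1.02, and in all other kept cells, with -1.07 and -1.02, the same direction as in NK cells. Cxcr6, a receptor that retains lymphocytes in tissue, was at 90.0 and 133 CPM (0.56, -0.07 to 1.19). Cd96, an inhibitory receptor that binds CD155, was at 139 and 60.8 CPM (-1.19, -1.91 to -0.48). Only 2 of 9 checkpoint receptor genes, Cd96 and Cd160, had 50 or more UMIs, and both were past 2-fold lower.

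**Figure D5:**
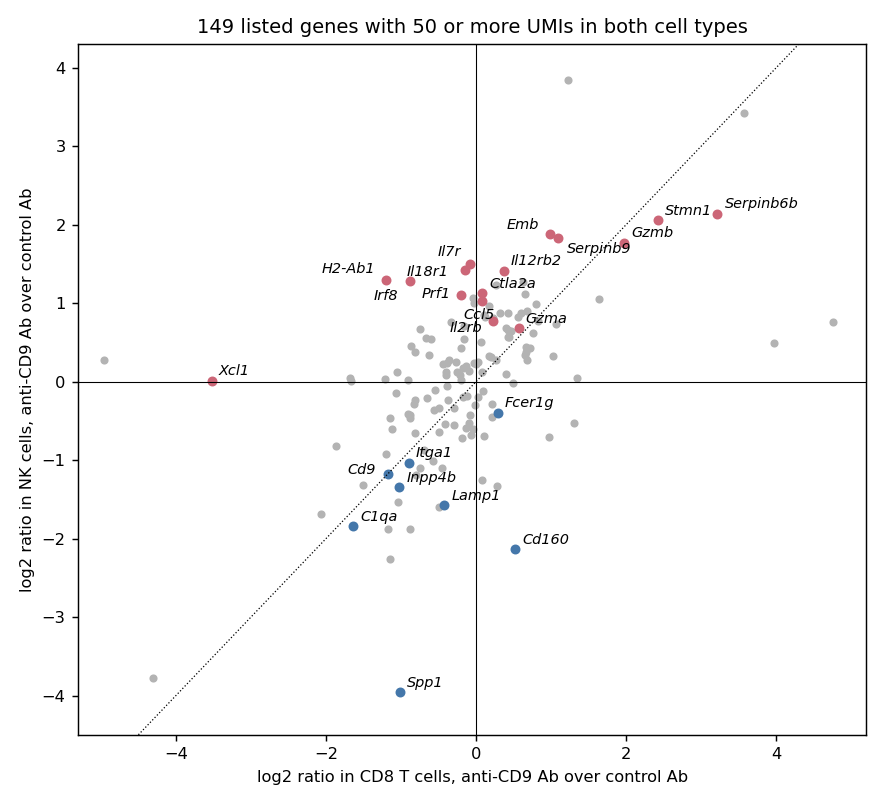
Log2 ratio of CPM, anti-CD9 Ab over control Ab, in CD8 T cells (x axis) and NK cells (y axis) for the 149 listed genes with 50 or more UMIs in each cell type, with named genes in red (NK cell ratio above 0) or blue (below 0). On the dotted line both are equal. Gzma, Gzmb, Itga1 and Cd9 lay near it. Il18r1, Il12rb2, Irf8 and Ccl5 were past 2-fold higher in NK cells and not in CD8 T cells (Irf8 and Ccl5 were inside 2-fold in NK cells at 2% mitochondrial UMIs), and Xcl1 was past 2-fold lower in CD8 T cells and level in NK cells.

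Tetraspanins are the family of CD9, the target of the antibody. Of 7 with 50 or more UMIs, 2 were higher and 5 lower with anti-CD9 Ab, 3 past 2-fold lower (Cd9, Cd81 and Cd63), of which Cd63 had a log2 ratio of -1.87 with all members and -1.11 without the 4. The tetraspanins had a list median of -0.42 that turned to 0.22 at 100 or more UMIs per gene, to 0.05 at 2% mitochondrial UMIs and to 0.37 after thinning with the same members. Cd9 was at 558 CPM under control Ab and 246 CPM under anti-CD9 Ab in NK cells, a log2 ratio of -1.18 (-1.54 to -0.82), at 236 and 104 CPM in CD8 T cells, and at 2299 and 739 CPM in all other kept cells. It had a UMI in 59.4% (51.9 to 66.5) and 38.6% (30.7 to 47.1) of NK cells, and in 42.6% and 23.7% after thinning, against 17.5% and 9.55% of CD8 T cells after thinning. The share in NK cells was therefore above the share in CD8 T cells in each library, and it differed between the antibodies in the same direction as in the cells around them. The member rich in Spp1 alone held 32 of the 217 control UMIs, and without the 4 members the log2 ratio was -0.86. Cd53, a tetraspanin of leukocytes, was at 314 and 572 CPM (0.87, 0.55 to 1.19).

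Of 10 type I interferon response genes, 6 were higher and 4 lower, 1 past 2-fold in each direction. The summed level of the whole list was 1944 and 1924 CPM in NK cells and 4090 and 3386 CPM in CD8 T cells. In all other kept cells it was 2309 and 5497 CPM. Ifitm3 was at 15.4 and 221 CPM (log2 ratio 3.84, 2.65 to 5.04), and Rnf213 at 213 and 99.5 CPM (-1.10, -1.66 to -0.54), which without the 4 members was just inside 2-fold. Ifitm1, outside the list and the highest ratio of all, had 3 UMIs from 1 cell with control Ab and 186 UMIs from 17 cells with anti-CD9 Ab, with a log2 ratio of 6.06 (4.41 to 7.70), 90 and 37 of them in the 2 Gzmc-rich cells. Without the 4 members its log2 ratio was 4.44. The gene was also higher in all other kept cells, by 5.40. Among cell cycle genes only H2az1, Tubb5 and Stmn1 had 50 or more UMIs, and the proliferation marker Mki67 had 1 and 20 UMIs in all NK cells. All 9 metabolism and stress genes were higher, led by Hif1a at 66.8 and 160 CPM (1.26, 0.60 to 1.93), with a list median of 0.62 that was 0.33 after thinning with the same members and -0.01 when members were chosen again. The median of this list was 0.65 in CD8 T cells, and its summed level was 1912 and 3326 CPM in all other kept cells. Of 8 immediate-early and heat shock genes, 4 were in each direction, with only Ier2 past 2-fold (-1.01).

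Several of the most extreme ratios belonged to genes of other lineages. All 6 microglial markers with 50 or more UMIs were past 2-fold lower, with a median log2 ratio of -1.69 against -1.17 in CD8 T cells, and the summed level of the 10 listed was 2525 and 818 CPM in NK cells and 25288 and 11388 CPM in all other kept cells. Without the 4 members 5 of the 6 were past 2-fold lower, and the summed level in NK cells was 2152 and 837 CPM. Their most abundant gene in NK cells was Cst3, and Tmem119, a defining microglial gene, had 1 UMI in each library. Spp1, a macrophage and microglial gene, was at 2841 and 182 CPM in NK cells (-3.96, -4.32 to -3.60), and without the 4 members at 1282 and 180 CPM. Lyz2 had a log2 ratio of -1.34 with all members and 1.49 without the 4. Saa3, an acute phase gene of myeloid cells, was at 10.3 and 304 CPM (4.89, 3.45 to 6.33), with 5.50 in CD8 T cells and 5.64 in all other kept cells. The summed neutrophil markers, led by Lcn2, were at 131 and 348 CPM in NK cells and at 537 and 5032 CPM in all other kept cells, with 2 of the 10 at 0 in NK cells. Single cells carried much of these sums: 1 anti-CD9 member held 39 of the 50 Lcn2 UMIs, and 1 control member held 22 of the 23 S100a8 UMIs. The median log2 ratio of the 3 neutrophil markers with 50 or more UMIs was 0.76, and 3.96 without the highest cell of each gene. The part of such RNA in the other differences was not tested.

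NK cells varied among themselves along the expression of Gzmc. With control Ab, 38 NK cells had a Gzmc UMI and 149 had none, and with anti-CD9 Ab the numbers were 22 and 123. Cells with Gzmc also held more UMIs (medians of 2375.5 against 1933, and 3263 against 2051), which raises every share given here for them. Itga2 (CD49b), an integrin of circulating NK cells, nevertheless had a UMI in 7.89% of the cells with Gzmc against 31.5% of those without in the control library, and in 18.2% against 39.0% in the anti-CD9 library. Serpinb6b followed the same order, with 7.89% against 18.1% and 22.7% against 52.8%.

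The Ly49 gene Klra8 was lower beside Gzmc, at 118 against 530 CPM and at 264 against 738 CPM. Cxcr6 was more frequent in cells with Gzmc, with 21.1% against 9.40% and 40.9% against 12.2%. Itga1 was found in 55.3% against 41.6% and in 63.6% against 17.9%. By CPM Itga1 was at 442 against 375 in the control library and at 419 against 114 in the anti-CD9 library. Tnfsf10, the death ligand TRAIL of type 1 innate lymphoid cells, was found in 36.8% against 17.4% and in 40.9% against 16.3%, although its CPM in the anti-CD9 library was 121 against 111. Other genes of the same kinds did not follow these orders. Il7r, a residency list gene, was lower beside Gzmc, at 32.3 against 64.2 CPM and 11.0 against 210 CPM. The Ly49 gene Klra7 was at 442 against 382 CPM and 672 against 543 CPM. Eomes was found in 26.3% against 25.5% of control NK cells and in 18.2% against 29.3% of anti-CD9 NK cells. These values are a description with no test.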

How the data were processed

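Thalamic CD45+ cells of both antibody groups were profiled by 10x 3′ scRNA-seq (v3.1). The deposited files hold raw UMI counts per gene and barcode. The submitters' processing notes name Cell Ranger 8.0.0 and GRCm39, whereas the study's methods name another version and build, so only gene symbols and no coordinates of the files were used. The libraries held 38042608 and 40825201 UMIs in 12245 and 15173 barcodes, 54 of which were shared (2 among control and 0 among anti-CD9 NK cells). Cells were kept and NK cells chosen as stated in the report. UMI counts of NK cells were summed per library (388988 and 361669 UMIs) and scaled to CPM, with log2 ratios and Poisson intervals in Python 3.11.15, NumPy 2.4.6, SciPy 1.17.1 and pandas 2.3.3. UMIs tag mRNA ends, so no length scaling was applied. Ratios were given for the 2966 genes with at least 50 UMIs in NK cells over both libraries. For shares at equal depth, cells were thinned to 1000 UMIs and shallower cells left out (11 control and 10 anti-CD9 NK cells). Log2 ratios after thinning were computed for these members and also with members chosen again on the thinned counts (148 and 98 cells). Doublets were scored against simulated pairs at 0.8% per 1000 barcodes, which marked 1093 (9.35%) and 1672 (11.6%) kept cells and 5 and 6 NK cells. Marked cells stayed in. Of the listed genes, Klra13-ps and 4 gamma-delta T cell genes had no matching symbol. Alternatives varied the receptor minimum, mitochondrial limit, gene minimum, scaling, doublets and single cells. The steps were tested on simulated data. Genes named in the text are the defining markers, Cd9, the most abundant and the most and least changed genes of each list, the most changed genes overall and those furthest above other cells. Genes named beyond this rule were chosen after their values were seen. Members and lists were chosen with earlier results of these data known. Nothing here tests a difference between antibodies, because each had 1 library. Some genes are not reported here.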

Additional observations from a re-analysis of the deposited data

Results flagged for a closer look

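H2-Ab1, an MHC class II gene, was at 56.6 CPM with control Ab and 138 CPM with anti-CD9 Ab in NK cells (22 and 50 UMIs), a log2 ratio of 1.29 (0.57 to 2.01), and lower with anti-CD9 Ab in CD8 T cells, with a log2 ratio of -1.20. It stood out because the single library of each antibody moved more than 2-fold in opposite directions in the 2 cell types, with a difference of 2.49 between the log2 ratios. The difference was not tested. In all other kept cells the log2 ratio was 0.86. Other class II genes were nearer equality in NK cells: H2-Aa was at 103 and 105 CPM (log2 ratio 0.03), Cd74, the invariant chain, at 242 and 249 CPM (0.04), and H2-Eb1 at 66.8 and 113 CPM (0.76, 0.05 to 1.47). Their log2 ratios in CD8 T cells were -1.22, -1.68 and -1.15. The summed B cell markers were at 10011 and 501 CPM in CD8 T cells, and the plasma cell markers at 1183 and 74.5 CPM. In NK cells these sums were 802 and 852 CPM, and 136 and 141 CPM. The part of such RNA in the class II values was not tested.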

How the results depend on the processing

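No paired analysis was possible because each antibody had 1 library. Depth limits every value: a gene with 50 UMIs over both libraries has a wide counting interval, and a single cell can decide a granzyme or myeloid gene. Cell-based settings were 3 or more or 1 or more receptor UMIs, at most 2% mitochondrial UMIs, no UMI of other lineages, no marked doublets, and thinning to 1000 UMIs with members chosen again on the thinned counts ("thinned" below). Chosen after seeing the data were thinning with the same members, leaving out 4 cells and leaving out each gene's highest cell. Applying the settings to single genes was also chosen then, as it was for Cd9 except for thinning with members chosen again, which was planned. No list value was possible for interferon or metabolism genes with no UMI of other lineages, since no gene was left. Of 219 alternative values of the share ratio, counts, Cd9 and list medians, 161 stayed in the same range, 51 moved and 7 turned direction from a main value beyond its counting error. Counting also medians whose main value was within its counting error, 21 of 189 ratios and medians had the other sign, among them 5 of 14 for interferon genes, 4 of 15 each for transcription factors and tetraspanins, 3 of 15 for receptors and 2 of 15 for adapters. The causes were not tested. Fewer cells or genes entered under the stricter settings.

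The ratio of shares was 0.793 with 1 or more receptor UMIs and 1.48 per T cell. Genes past 2-fold higher numbered 168 with 1 or more receptor UMIs, 11 without other lineages, 25 thinned, 260 at 20 UMIs per gene and 37 at 100. Those lower numbered 36 at 2% mitochondrial UMIs, 10 without other lineages, 18 thinned, 311 at 20 and 22 at 100 UMIs per gene. The Cd9 log2 ratio was -0.73 with 1 or more receptor UMIs, -1.96 at 2% mitochondrial UMIs, -0.55 thinned and -0.74 with cells weighted equally.

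With 1 or more receptor UMIs, list medians were -0.16 for receptors, -0.16 for adapters, 0.48 for cytokine receptors and 0.66 for early maturation. At 2% mitochondrial UMIs they were 0.43 for granule, 0.14 for trafficking, 0.50 for early maturation, -1.24 for residency, -0.082 for transcription factors, -0.74 for interferon and 0.048 for tetraspanin genes. Without other lineages they were -0.044 for trafficking, -1.40 for residency, -0.20 for transcription factors and 1.75 for tetraspanins. In that setting only 289 genes were tested, the residency median equalled the Inpp4b value, and Cd9, a tetraspanin, was at -1.29. Thinned, they were 0.032 for granule, 1.10 for cytokine receptor, 0.0097 for early maturation, -1.07 for residency, 0.32 for transcription factor, -0.78 for interferon, -0.083 for tetraspanin and -0.011 for metabolism genes. The interferon median was -0.24 at 20 UMIs per gene. At 100 UMIs per gene the medians were 0.17 for receptors, -1.03 for residency, -0.20 for interferon, 0.22 for tetraspanins and 0.37 for metabolism, which was 0.31 without the 4 cells.

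Thinned with the same members, 41 genes were past 2-fold higher and 19 lower, and the Cd9 log2 ratio was -0.73. List medians were then 0.70 for granule, 1.30 for cytokine receptor, 0.46 for adapter, 0.64 for early maturation, -0.85 for residency, 0.36 for transcription factor, -0.70 for interferon, 0.37 for tetraspanin and 0.33 for metabolism genes.

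Among single genes, Gzmb was at -0.38 thinned and Klf2 at -0.22 at 2% mitochondrial UMIs. Lyz2 was at 1.55 thinned, 0.29 thinned with the same members, 0.63 with cells weighted equally, 1.21 without its highest cell and 1.49 without the 4 cells. Prf1 was inside 2-fold under 6 settings, from 0.45 to 0.91, and Il18rap at 0.82 and Klf2 at 0.92 with 1 or more receptor UMIs.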
